A study of Homo sapiens with 4 samples.

Results

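The 8 genes described here encode the core proteins of small nucleolar ribonucleoproteins (snoRNPs): FBL, NOP56, NOP58 and SNU13 of the box C/D particles, and DKC1, NOP10, NHP2 and GAR1 of the box H/ACA particles. They were found by symbol in a table of 26603 genes, and each matched 1 row. RNA of PLC8024, a human liver tumour cell line, was sequenced in 2 control libraries and 2 libraries of drug-treated cells. All 4 libraries come from this 1 line, and neither the drug nor its dose, its duration or the vehicle of the controls is given in the labels, and separate cultures are not mentioned either. The p-values below therefore measure only the spread between these libraries, which may be technical. FBL drew attention to the family because its level differed between the groups, so its difference is given as a description, with no test. The other 7 genes were added for the particle they belong to.

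In the nucleolus, snoRNPs modify ribosomal RNA at sites chosen by base pairing of their guide RNA. Fibrillarin, the product of FBL, is the methyltransferase of the box C/D particles, where NOP56 and NOP58 form a scaffold and SNU13 binds the kink-turn of the guide RNA. Dyskerin, the product of DKC1, is the pseudouridine synthase of the box H/ACA particles, which also contain NOP10, NHP2 and GAR1. The same H/ACA proteins bind the RNA of telomerase, and SNU13 is also a part of the spliceosome.

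Promoter windows of 3 members are shown because they are the start regions of FBL, of its scaffold partner NOP56 and of DKC1, the modifying enzyme of the other particle. Each runs 5′ to 3′ on the gene's strand, from 250 bases before to 50 bases after the RefSeq start, in GRCh38.p14. FBL lies on the minus strand at chr19:39846330-39846629, NOP56 on the plus strand at chr20:2652382-2652681 and DKC1 on the plus strand at chrX:154762614-154762913. Capitals mark matches, on either strand, to CACGTG (the E-box read by MYC), GCGTG (the core read by the aryl hydrocarbon receptor), or CCGGAA (the core read by ETS factors), and no 2 matches overlapped in these windows.
FBL: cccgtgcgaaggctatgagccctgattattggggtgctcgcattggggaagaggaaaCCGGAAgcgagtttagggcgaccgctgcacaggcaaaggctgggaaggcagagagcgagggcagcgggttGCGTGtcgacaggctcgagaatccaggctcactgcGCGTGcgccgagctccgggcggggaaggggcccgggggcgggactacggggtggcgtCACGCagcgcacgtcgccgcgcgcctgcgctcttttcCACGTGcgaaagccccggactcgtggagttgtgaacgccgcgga
NOP56: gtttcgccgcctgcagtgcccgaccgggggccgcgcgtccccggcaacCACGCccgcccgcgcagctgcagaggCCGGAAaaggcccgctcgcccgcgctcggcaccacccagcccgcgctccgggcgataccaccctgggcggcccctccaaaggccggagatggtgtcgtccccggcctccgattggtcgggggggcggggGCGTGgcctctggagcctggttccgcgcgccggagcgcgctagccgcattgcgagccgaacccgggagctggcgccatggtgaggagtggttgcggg
DKC1: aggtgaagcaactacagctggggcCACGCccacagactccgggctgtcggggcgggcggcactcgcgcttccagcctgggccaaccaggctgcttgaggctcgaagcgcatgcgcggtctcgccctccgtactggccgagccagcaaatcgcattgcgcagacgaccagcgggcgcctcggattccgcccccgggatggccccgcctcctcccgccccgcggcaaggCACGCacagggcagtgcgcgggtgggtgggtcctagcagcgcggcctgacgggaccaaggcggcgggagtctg

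The FBL window held CACGTG starting at base 7 of the transcript, GCGTG starting at -123 and -88 and on the opposite strand at -31, and CCGGAA at -193. Of the 6 members with a window (NOP58 and SNU13 had none), CACGTG was in 2 (FBL and NOP10), GCGTG in 4 and CCGGAA in 4. Over the first window of each of 27305 gene symbols these letters were in 7.43%, 36.3% and 17.6%. A longer palindromic element that was also searched for was in 0.469% of all windows and in 0 of the 6 members. These matches are a description of the letters and not of bound factors. The windows of FBL, NOP56 and DKC1 were 67.7%, 76.3% and 72.3% G and C, beside a median of 58.3% over all windows.

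Values are FPKM as deposited, that is, reads scaled by gene length and library depth, and whole reads per gene were recovered from the same table. The recovered reads totalled 28526098 and 38611635 for control and 40279560 and 38685856 for drug. Of 12 hepatocyte-lineage genes, 10 had at least 1 FPKM in every library. TTR and AFP were under 0.5 FPKM throughout. The markers moved in both directions: ALB, APOA1 and the fibrinogen genes FGG and FGB were lower in both drug libraries than in both controls, and HNF4A, APOA2, KRT8 and KRT18 were higher in both. Their summed level was 1655 and 1665 FPKM in the controls, against 1205 and 1178 FPKM with drug. FGG (650 and 646 to 325 and 306 FPKM) and FGB (556 and 549 to 295 and 274 FPKM) dominated this sum. Its fall is therefore theirs and not that of the markers as a whole. The part of these markers in the results on the members was not tested. A limma fit on log2(FPKM + 1) over 11227 genes, those whose mean reached 1 FPKM in either group, gave the differences and their standard errors. A gene was called at an adjusted p under 0.05, which 873 genes (7.78%) met as higher and 676 (6.02%) as lower, 13.8% in either direction, and the median log2 difference of all tested genes was 0.04. After scaling by trimmed means (TMM), 540 were higher and 836 lower, so the share of higher calls moved from 56.4% to 39.2%. In bulk RNA, fewer cells that express a gene and less of its RNA per cell cannot be told apart.

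Of the 8 members 7 passed the filter, all of them in both groups, and NOP10 did not. Apart from FBL, which is described without a test, 2 of the 6 other tested members were called higher by limma, NOP58 and DKC1. On recovered reads edgeR called NOP58 and DESeq2 called NOP58 and DKC1. No member was lower: the count was 0 with limma (also at an unadjusted p under 0.05), edgeR and DESeq2. The family was proposed with results of this contrast known, so nothing is read from these counts beside the shares of all genes, which were 7.78% higher and 6.02% lower with limma, 8.37% and 11% with edgeR, and 7.03% and 10.1% with DESeq2. At an unadjusted limma p under 0.05, 21% of all tested genes were higher and 12.1% lower. Leaving out FBL, whose difference chose the family, both drug libraries lay above both control libraries in 4 of the 7 other members. In the other 3, among them the untested NOP10, the groups overlapped. Of all tested genes 40.3% lay higher in this way and 23.3% lower. Apart from FBL the differences were small: over the 6 other tested members log2 differences ran from -0.002 to 0.19, with a median of 0.14.

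**Figure D1:**
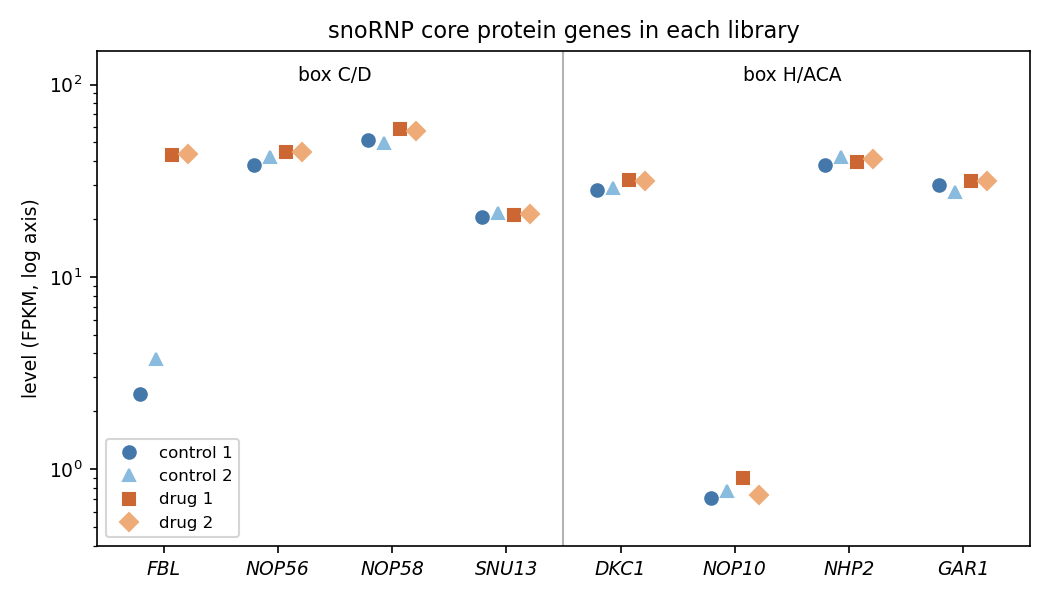
FPKM on a log axis for each of the 8 genes, with 1 point for each of the 4 libraries and a line between the box C/D and box H/ACA genes. FBL moves from 2.46 and 3.72 to 42.96 and 43.3, NOP10 stays under 1, and the other 6 genes lie between 20.5 and 58.7 in all libraries.

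FBL (ENSG00000105202) lies on chromosome 19 at 39834458 to 39846414, minus strand, in GRCh38. Its level was 2.46 and 3.72 FPKM in the controls and 42.96 and 43.3 FPKM with drug. Both drug libraries were far above both controls, and they lay closer to each other than the controls did. The mean went from 3.09 ± 0.891 to 43.1 ± 0.242 FPKM (SD, n = 2 libraries each), a ratio of 13.96, and single pairs of libraries gave ratios between 11.6 and 17.6. The log2 difference was 3.45 ± 0.14 (SE, 95% confidence interval 3.08 to 3.82), the second largest rise of the 11227 tested genes. These values rest on 150 and 307 reads in control and 3700 and 3582 in drug libraries. Exact Poisson 95% intervals were 2.08 to 2.89 FPKM in control 1 and 3.31 to 4.16 FPKM in control 2, so the control libraries differed by more than counting error. That control ratio of 1.51 was wider than in 96.2% of tested genes. Among tested genes, the mean of FBL stood at percentile 29.9 in control and 92.1 with drug.

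Measurements of the FBL locus and sequence are given beside this value. Of its 50-base words in GENCODE 29 transcripts 0.718% also occurred in transcripts of other genes on the primary assembly, and copies on other sequences of hg38 were not tested. FBLL1, the fibrillarin-like paralog, was between 0.0777 and 0.224 FPKM in all libraries. Within 500 kb of FBL 27 other genes had rows and 15 were tested, with a median log2 difference of -0.01. Of these 1 was called, the elongation factor gene SUPT5H (15.1 ± 0.0683 to 16.97 ± 0.313 FPKM, limma adjusted p = 0.0389). The nearest measured neighbours were DYRK1B, a kinase gene 0.257 kb away, at no more than 0.0892 FPKM in any library, and FCGBP, a mucin-like gene 16.9 kb away, at no more than 0.0108 FPKM. The differences of the 15 tested neighbours ran from -0.18 to 0.69, all far under that of FBL.

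FBL belonged to a small set of very large ratios, and in most of that set the replicates of a group differed widely. A ratio of mean FPKM over 8 was seen in 9 tested genes, chosen here after their values were seen. In 7 of the 9 the replicates of a group differed more than 4-fold, whereas this was so for 134 (1.19%) of all tested genes and for 0 members. Of the 7, RNU6-807P did so only in its controls, which had 0 and 1 reads. Both drug libraries lay above both controls in 5 of the 9. RPS18, a ribosomal protein gene, had 0.172 and 0.0424 FPKM in control, then 314.5 FPKM in drug 1 and 0.0986 in drug 2. EEF1B2, a translation elongation factor gene, had 2.20 and 2.27 FPKM in control and 2.18 in drug 1, then 105.1 in drug 2. CUTA had 0.953 and 0.939 FPKM in control, 25.2 in drug 1 and 0.868 in drug 2. Only FBL and CYP1A1, which encodes a cytochrome P450, had both drug libraries more than 4-fold above both controls among the 9. What set the low values of RPS18, EEF1B2 and CUTA was not tested, nor whether it also shaped the control values of FBL. A low FPKM in this table was therefore not read as a low transcript level.

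**Figure D2:**
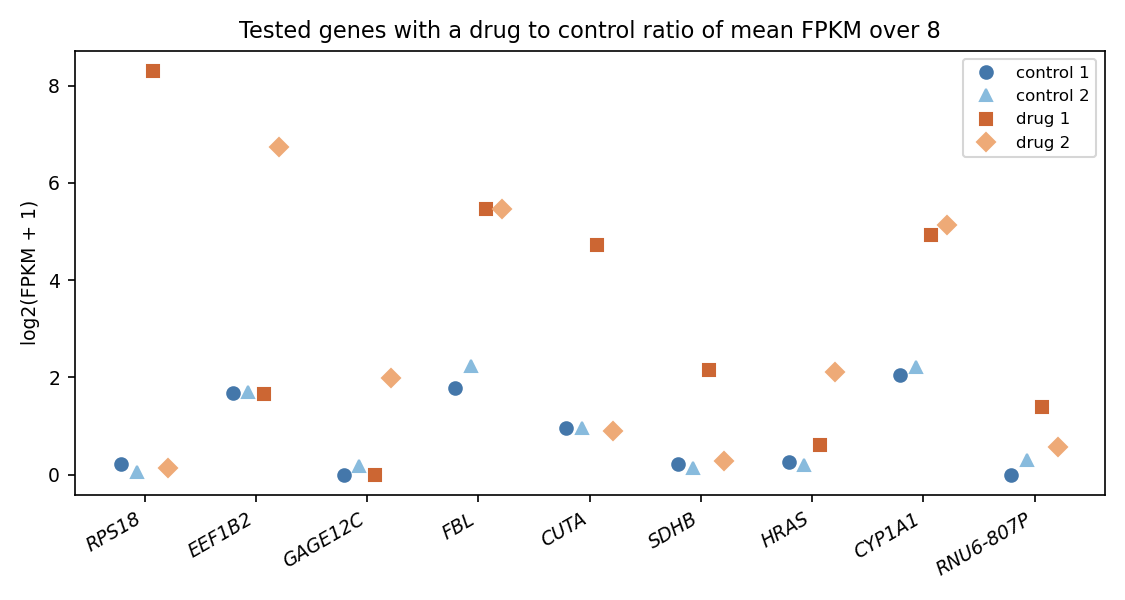
log2(FPKM + 1) in each library for the 9 tested genes whose ratio of mean FPKM, drug over control, was over 8. For RPS18, EEF1B2 and CUTA 1 drug library lies far above the other 3 libraries, whereas for FBL and CYP1A1 both drug libraries lie together above both controls.

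Tested genes were ranked by how near their centred log2(FPKM + 1) values over the 4 libraries lay to those of FBL. Pseudogenes, antisense genes and unnamed genes were left out of this ranking. The nearest of the rest were CYP1A1, at a Euclidean distance of 0.605, PAK1IP1 (1.70), GMPR2 (2.11), TMEM14C (2.21) and VIPR1 (2.22). CYP1A1 had 3.13 and 3.67 FPKM in the controls, against 29.4 and 33.9 FPKM with drug. PAK1IP1 had 5.09 and 14.6 FPKM in the controls, against 43.7 and 29.8 FPKM with drug, a spread of 2.87-fold between its controls. With 4 libraries, nearness of this kind describes the size of the change and little else.

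Among the other box C/D genes, NOP58 and NOP56 were slightly higher with drug and SNU13 was level. NOP58 (ENSG00000055044, chromosome 2 at 202265716 to 202303666) had 51.7 and 49.8 FPKM in the controls, against 58.7 and 57.1 FPKM with drug, and the groups did not overlap. Its log2 difference was 0.19 ± 0.03 (SE, limma adjusted p = 0.0253). NOP56 (ENSG00000101361, chromosome 20 at 2652145 to 2658393) had 38.1 and 41.8 FPKM in the controls, against 44.68 and 44.70 FPKM with drug. The groups of NOP56 did not overlap, but its log2 difference of 0.16 ± 0.05 (SE) did not pass (limma adjusted p = 0.0905). SNU13 (ENSG00000100138, chromosome 22 at 41673930 to 41690504) had 20.5 and 21.5 FPKM in the controls, against 21.1 and 21.2 FPKM with drug, with both drug values between the controls. The 95% interval of its log2 difference ran from -0.08 to 0.10. NOP58 lost its limma call with any 1 library left out, with TMM scaling (limma adjusted p = 0.0638) and without the filter (0.0851). It was still called with edgeR on recovered reads (edgeR adjusted p = 0.0397). Without control 2, NOP56 passed (limma adjusted p = 0.0457).

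Among the box H/ACA genes DKC1 was slightly higher with drug, GAR1 did not pass, NHP2 was level and NOP10 was barely measured. DKC1 (ENSG00000130826, chromosome X at 154762742 to 154777689) had 28.4 and 28.9 FPKM in the controls, against 31.9 and 31.7 FPKM with drug, without overlap. Its log2 difference was 0.14 ± 0.03 (SE, limma adjusted p = 0.0337). GAR1, the subunit that contacts dyskerin alone (ENSG00000109534, chromosome 4 at 109815510 to 109824740), had 29.99 and 27.7 FPKM in the controls, against 31.59 and 31.62 FPKM with drug. Its groups did not overlap and its log2 difference of 0.13 ± 0.04 (SE) did not pass (limma adjusted p = 0.114). NHP2 (ENSG00000145912, chromosome 5 at 178149460 to 178153967), which like SNU13 belongs to the L7Ae family of RNA-binding proteins, had 38.4 and 42.1 FPKM in the controls, against 39.4 and 40.9 FPKM with drug. Its groups overlapped and the 95% interval of its log2 difference ran from -0.13 to 0.13. With both strands counted, 27.5% of the 50-base words of NHP2 transcripts also occurred in other genes. Most were shared with RMND5B (21.3%), which overlaps it on the opposite strand, and 6.13% with the pseudogene NHP2P1. DKC1 lost its limma call with any 1 library left out, with TMM scaling (limma adjusted p = 0.0798) and without the filter (0.0781). It was also not called with edgeR on recovered reads (edgeR adjusted p = 0.0571).

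**Figure D3:**
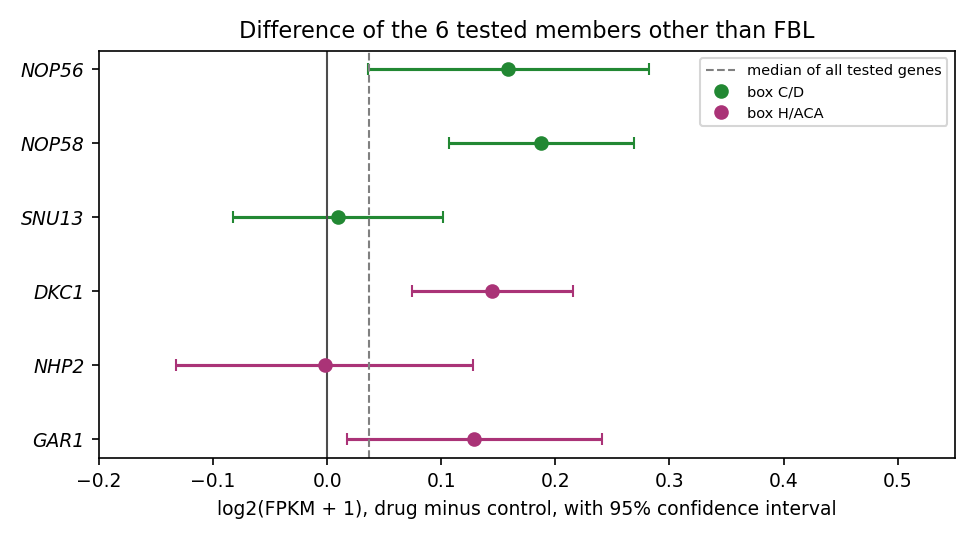
Difference in log2(FPKM + 1), drug minus control, with its 95% confidence interval from limma, for the 6 tested members other than FBL; the dashed line marks the median of all tested genes. The intervals of NOP58 (at 0.19), DKC1 (at 0.14), NOP56 (0.04 to 0.28) and GAR1 (0.02 to 0.24) lie above 0. Of these NOP58 and DKC1 were called at a limma adjusted p under 0.05, and NOP56 and GAR1 were not. SNU13 and NHP2 lie on 0.

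NOP10 (ENSG00000182117, chromosome 15 at 34341713 to 34343177), which encodes the smallest H/ACA core protein, had 0.712 and 0.772 FPKM in the controls, against 0.898 and 0.738 FPKM with drug, with overlap. These values rest on 32, 47, 57 and 45 reads, and NOP10 lay under the filter, so its difference was not tested. None of its 50-base words occurred in transcripts of other genes. The deposited values imply a length of 1576 bases for NOP10, beside 554 exon bases in GENCODE 29, and with the shorter length its control mean would be 2.11 FPKM. For DKC1 the implied length was 9198 bases beside 4203, which would make its control mean 62.7 in place of 28.6 FPKM. The other 6 members were within 10% of the annotated length, so the place of DKC1 among the members depends on the gene model, while NOP10 was the lowest of the 8 by either length. The drug over control ratios of FPKM do not depend on the gene model, but the filter and the differences on log2(FPKM + 1) do. By GENCODE 29 length NOP10, at 2.11 FPKM in control and 2.33 FPKM with drug, would have passed the filter. The dyskerin partners NHP2 and GAR1 stood at 40.3 ± 2.63 and 28.8 ± 1.62 FPKM in control, far above NOP10 by either length.

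Per length, the box C/D genes in control ranked NOP58 (50.7 ± 1.31 FPKM), NOP56 (39.97 ± 2.61), SNU13 (20.996 ± 0.764) and FBL (3.09 ± 0.891), each clear of the next in every library. With drug FBL was 0.961 and 0.969 times the median of its 3 partners, after 0.0645 and 0.0889 times in control. FBL made up 2.18% and 3.18% of the summed FPKM of the 4 box C/D genes in the controls, and 25.7% and 26.0% with drug. Without FBL that sum was 110.2 and 113.2 FPKM in the controls, against 124.5 and 123.0 FPKM with drug. In the box H/ACA set, by the deposited values, DKC1 took 29.13% and 29.04% in control and 30.7% and 30.2% with drug. NOP10 took under 1% in every library. These H/ACA shares depend on the gene model. By GENCODE 29 length the control means would be 62.7 FPKM for DKC1 and 2.11 FPKM for NOP10. By deposited FPKM the box C/D genes thus differed between groups mainly in the share of FBL. The H/ACA shares moved by no more than a few percent. The low control FPKM of FBL is not read here as a low transcript level.

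**Figure D4:**
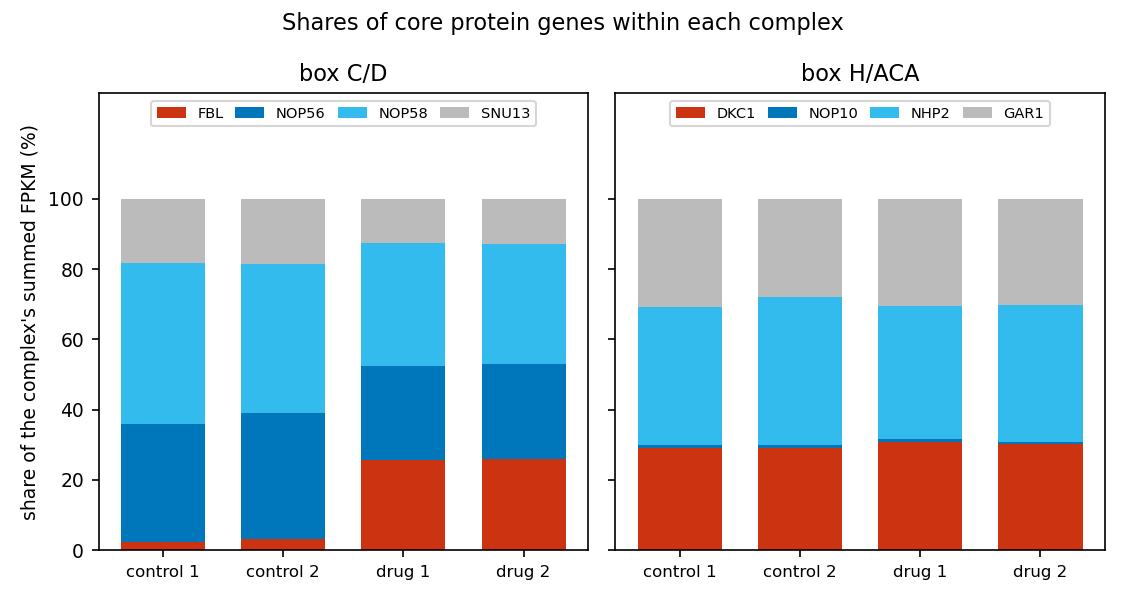
Share of each gene in the summed FPKM of its particle's 4 core protein genes, in percent, with 1 stacked bar for each library. FBL goes from 2.18% and 3.18% to 25.7% and 26.0% of the box C/D set, while the box H/ACA bars look alike in all 4 libraries. Shares use the deposited FPKM, and those of the box H/ACA set depend on the lengths taken for DKC1 and NOP10.

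The snoRNAs themselves were sparsely measured in these messenger RNA libraries. Of 116 listed genes for snoRNAs and small Cajal body RNAs, 54 were tested, with a median of 14.6 reads per gene and library. Among 27 box C/D (SNORD) genes 1 was called higher and 1 lower, and among 27 box H/ACA (SNORA) genes 3 were higher and 0 lower. Together, 4 of 54 were higher and 1 lower, beside 7.78% and 6.02% of all tested genes, so these counts are no result about snoRNA genes. SNORD101 went from 28.8 and 29.8 to 42.5 and 55.9 FPKM (limma adjusted p = 0.0278). SNORD17 went from 6.36 and 7.65 to 5.13 and 4.80 FPKM (limma adjusted p = 0.0402). SNORA33 went from 56.6 and 53.6 to 77.9 and 78.7 FPKM (limma adjusted p = 0.00326). The other called genes, SNORA20 and SNORA22, had no more than 15 reads in any library. Most snoRNA genes lie in introns, so reads from host transcripts cannot be told apart from them here. The counts of snoRNA genes also changed with 1 library left out. On recovered reads edgeR called 2 of them higher, beside 8.37% of all tested genes, and DESeq2 1, beside 7.03%. Both called 0 lower, beside 11% and 10.1% of all tested genes. Without the filter 2 of 116 were higher, beside 170 of all 26603 genes, and 0 lower, beside 214.

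Genes that work with the core proteins mostly moved little. Their counts below are to be read against the shares of all tested genes. These were 7.78% higher and 6.02% lower by limma, 8.37% and 11% by edgeR, and 21% and 12.1% at an unadjusted limma p under 0.05. No list was tested as a set, and these shares were not matched to the lists for level. The median control level of the U3 small subunit processome list, 16.8 FPKM, stood at percentile 77.4 of tested genes. The unadjusted counts were made without TMM scaling. Of 10 tested snoRNP assembly factors 1 was higher and 0 lower (at an unadjusted p under 0.05, 4 and 0, and with edgeR 1 and 0), with a median log2 difference of 0.10 beside 0.04 over all tested genes. The 1 was ZNHIT6, whose product helps to assemble box C/D particles, at 11.7 and 12.4 FPKM in control and 14.3 and 14.3 in drug libraries (limma adjusted p = 0.0273). Of 13 genes of snoRNA maturation and trafficking 0 were higher (unadjusted 2, edgeR 0) and 2 lower. They were NCBP2, the small subunit of the nuclear cap-binding complex (65.6 and 64.97 to 52.3 and 55.1 FPKM, limma adjusted p = 0.0114), and TGS1, the enzyme that hypermethylates the cap of small nuclear and nucleolar RNAs (19.3 and 19.8 to 17.2 and 17.5 FPKM, limma adjusted p = 0.0351). NCBP2 and TGS1 both lay below both controls with drug. ZNHIT6 kept its call only when control 2 was the library left out, NCBP2 lost its call without control 1, and TGS1 with any 1 library left out.

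Of 29 tested genes of the U3 small subunit processome, the large particle that box C/D RNA U3 nucleates on pre-ribosomal RNA, 3 were higher (10.3%, beside 7.78% of all tested genes) and 0 lower, with a median of 0.08. At an unadjusted p 12 were higher (41.4%, beside 21%) and 0 lower, and with edgeR 1 and 0. They were NOL6 (17.3 ± 0.367 to 19.7 ± 0.0840 FPKM), NOL11 (32.1 ± 0.0626 to 35.8 ± 0.224) and WDR43 (41.8 ± 0.139 to 45.7 ± 0.0586), with limma adjusted p of 0.0378 or less. Each of the 3 lost its call with any 1 library left out, and with TMM scaling, with the replicate block or without the filter 0 processome genes were called. Of 23 enzymes that modify RNA without a guide 1 was higher, NSUN5, a cytosine methyltransferase of ribosomal RNA (5.03 ± 0.194 to 6.05 ± 0.162 FPKM), and 1 lower, TRMT112, the activator of several methyltransferases (53.3 ± 1.05 to 45.2 ± 1.63 FPKM). Each is 4.35% of the list, beside 7.78% and 6.02% of all tested genes, and at an unadjusted p 3 were higher and 1 lower. NSUN5 lost its call with any 1 library left out, with TMM scaling (limma adjusted p = 0.0593), with edgeR (0.0729) and with DESeq2 (0.168), which left 0 enzymes higher under these 3. TRMT112 kept its call under the same 3 and lost it without the filter and without control 1, control 2 or drug 1.

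Of 17 tested genes of RNA polymerase I and the nucleolar body 2 were higher (11.8%, beside 7.78%) and 0 lower, with a median of 0.08. At an unadjusted p 7 were higher (41.2%, beside 21%) and 0 lower, and with edgeR 2 and 0. UBTF, which encodes the upstream binding factor of ribosomal DNA, had 21.4 and 21.6 FPKM in the controls, against 26.3 and 26.8 FPKM with drug (limma adjusted p = 0.00749), and it kept its call with each library left out. POLR1E, an RNA polymerase I subunit gene, went from 19.9 ± 0.223 to 23.3 ± 1.07 FPKM (limma adjusted p = 0.0335) and lost its call with any 1 library left out. Of 13 genes of the spliceosomal tri-snRNP, where SNU13 also sits, 1 was higher (7.69%, beside 7.78%) and 0 lower. At an unadjusted p 7 were higher (53.8%, beside 21%) and 0 lower, and with edgeR 1 and 0. The called gene was PRPF3 (14.3 ± 0.134 to 17.1 ± 0.336 FPKM, limma adjusted p = 0.0150), which lost its call with any 1 library left out. Of the telomerase genes 3 were tested, NAF1, SHQ1 and WRAP53, with 0 called (unadjusted 1 higher and 0 lower, edgeR 0). All of them were already counted above, in the lists of snoRNP assembly or of snoRNA maturation and trafficking. TERT, TERC and TEP1 lay under the filter. TERT lay between 0.822 and 1.09 FPKM.

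**Figure D5:**
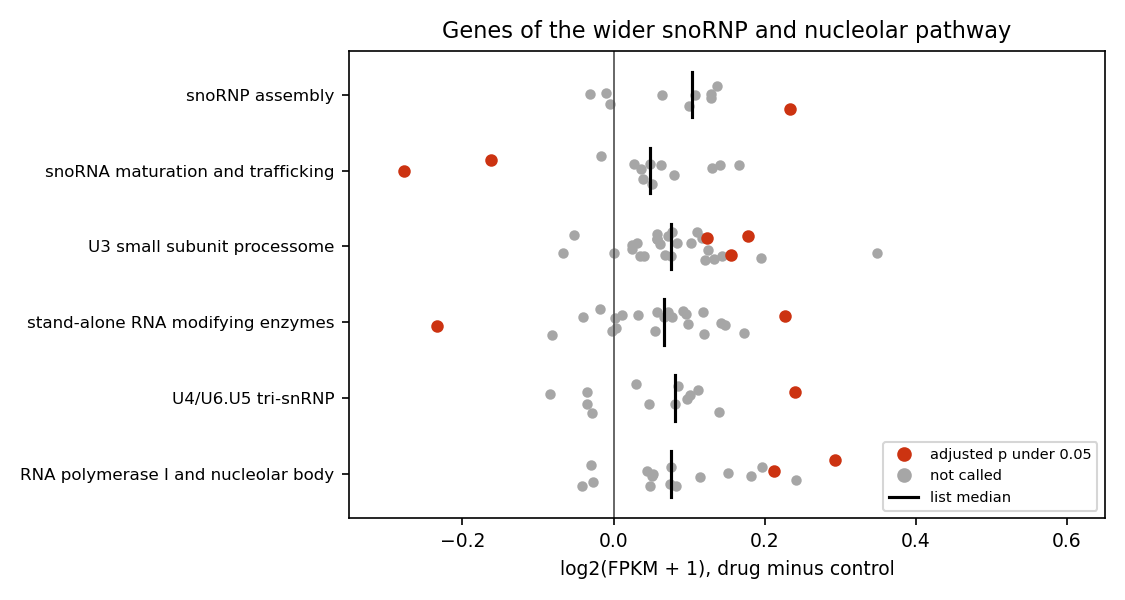
Difference in log2(FPKM + 1), drug minus control, for each tested gene of 6 lists around the snoRNPs, with called genes in red and a black bar at each list's median. The medians lie between 0.05 and 0.10, beside 0.04 for all tested genes, and no gene of these lists moves by more than 0.35.

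Several genes of these lists, like NOP10, stayed under the filter. WDR46, a processome gene, was at no more than 0.0247 FPKM in any library, and POLR1H, an RNA polymerase I subunit gene, at no more than 0.0141. NOP2, a nucleolar cytosine methyltransferase gene, lay between 0.111 and 0.292 FPKM. PRPF31, whose product shares a fold with NOP56 and NOP58, had 0.0525 and 0.630 FPKM in the controls, against 0.0464 and 1.14 FPKM with drug. Its low libraries were the first of each group. What sets these low values was not tested, and no difference is read from them.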

How the data were processed

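Per the labels' protocols, trizol was used for extraction and a stranded Illumina kit for mRNA libraries, and per the submitters' processing notes bcl2fastq and hg38 were used. The sources used here name no aligner, counter or annotation. The deposited per-library values are FPKM, a unit read from the values because the header names none. The deposited group columns are mean normalized read counts, a signal that per the file headers and values is reads divided by a size factor per library. The deposited log2 fold changes, p-values and adjusted p-values are the authors' own and were not used.

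Reads were recovered from FPKM and group means, and 100% lay less than 0.1 from a whole read. Of genes with up to 20 reads, 63.4% to 68.3% had an even number, so mates may be counted singly and Poisson intervals, which cover counting error only, are too narrow. Of all rows, 0 were at 0 in both control libraries and 2073 in both drug libraries. Genes without reads in control thus have no row, and the rank of FBL and the shares of all genes hold for the listed genes only. The design foresaw counts or FPKM, and its FPKM form was used: limma 3.58.1 (trend) on log2(FPKM + 1) over genes whose mean reached 1 FPKM in either group, with Benjamini-Hochberg adjustment over all tested genes. Alternatives used edgeR 4.0.16 and DESeq2 1.42.0 in R 4.3.3. On simulated data for this comparison (11095 genes), limma called 25% of genes changed 1.25-fold, 80% of those changed 1.5-fold and 88% of those changed 2-fold. The simulation gave every gene the same fixed spread beyond counting error, whereas 134 tested genes differed over 4-fold between replicates. These shares are therefore not the power in the real libraries. Members and lists were chosen with earlier results of these data known. Named genes are the members, FBLL1, up to 4 called genes per list and direction, the neighbours of FBL and called snoRNA genes. The 5 genes nearest to FBL in pattern, with pseudogenes, antisense and unnamed genes left out, are also named. The genes with ratios over 8, the lineage genes and the low list genes were named after their values were seen. Coordinates and lengths are from GENCODE 29, which held 25091 of the 26603 identifiers, and promoters from RefSeq. ZNHIT3, SMN1, TBL3, NOC4L, AATF and PRPF8 of the lists were not analysed here.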

Additional observations from a re-analysis of the deposited data

How the results depend on the processing

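The log2 difference of FBL, which is given without a test, lay between 3.23 (without control 1) and 3.83 (pseudocount 0.01) over the 11 alternatives. Over all genes, 873 were higher and 676 lower. Without the filter 170 were higher and 214 lower, with TMM scaling 540 were higher, with edgeR 1233 were lower and with DESeq2 1109 were lower. With the replicate number as a block 474 were higher and 451 lower. Same-numbered libraries deviated together at a correlation of only 0.0278, so the numbers were not taken as pairs. With 1 library left out 167 to 298 were higher and 253 to 315 lower; the lone library of a group was then assumed to vary like the others. Under the block DKC1 lost its call (limma adjusted p = 0.0657) and NOP58 kept it (0.0375). SNU13 and NHP2, which were never called, lay on both sides of 0 over the alternatives (SNU13 at -0.03 with TMM scaling, edgeR and DESeq2). The member levels by GENCODE 29 length were computed after seeing the data.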

Other observations

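Genes that lie within member genes were also read, chosen after their values were seen. SNORD11, in an intron of NOP58, had 9 and 10 reads in control and 12 and 22 in drug libraries (3.76, 3.08, 3.55 and 6.77 FPKM, limma adjusted p = 0.304). The processed pseudogene Z83840.1, within SNU13 on the same strand, had 28 and 36 reads in control and 50 and 38 in drug libraries and did not pass (limma adjusted p = 0.336).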
